A study of Homo sapiens with 3 samples.

Results

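Keratins are the intermediate filament proteins of epithelial cells. A filament is built from a type I and a type II keratin in equal parts, so the genes are usually switched on as partners. In a stratified epithelium such as that of the esophagus, KRT5 (type II), KRT14 and KRT15 (type I) mark the basal layer. KRT4 and KRT13 belong to the suprabasal layers of mucosa that does not cornify, KRT6A, KRT16 and KRT17 are induced in wounds and in many squamous tumours, and KRT8 and KRT18 are the partners of simple, single-layered epithelia. These 10 genes, taken by symbol from 19266 genes, were followed in KYSE510, an established human line of esophageal squamous cell carcinoma, as a basal, a wound-type, a mucosal and a simple class.

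A lentivirus delivered either a scrambled hairpin RNA (control) or 1 of 2 hairpins, sh1 and sh2, directed at the transcript TCONS_02256997. Infection for 24 h was followed by 48 h of selection under 4 µM puromycin in all 3 groups, so that infection and drug are shared by control and hairpins. The question behind the design was which genes respond to hairpins against that transcript, whose own level was not analysed here. Each group is 1 sample of 1 cell line with 3 numbered tables, counted as 3 libraries.

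Nothing in the labels tells cultures, libraries or repeat runs apart as the origin of these tables. All SDs, SEs and p-values therefore measure the spread between tables, which may be technical, and what sets 1 culture apart from another cannot be told apart from the effect of its hairpin. Within a sample the tables differed by more than sampling noise (chi-square per degree of freedom 1.75 in control, 1.49 with sh1 and 2.03 with sh2 for genes averaging 20 counts or more). Total expected counts were 14660821 to 16092417 per library. Epithelial markers were present, with 7 of 8 above 10 CPM (counts per a fixed, TMM-scaled library total) in every group. Their summed levels were 2145.3 to 2193.4 CPM in control, 2156.5 to 2173.3 in sh1 libraries and 2026.7 to 2057.2 in sh2 libraries. The list was set as squamous, but its members EPCAM and CDH1 are not specific to squamous epithelium. Its sums and counts do not describe squamous genes alone. The near-equal sums of control and sh1 cover opposite moves of single markers. With sh1, 3 of the 8 rose and 4 fell, among them EPCAM (334 to 662 CPM) and TP63 (518 to 213 CPM). Of the fibroblast markers 5 of 6 stayed below 1 CPM, the exception being COL1A1.

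All 10 keratin genes passed the filter on low counts. With sh1, 8 fell, 1 rose and 1 was not called (Benjamini-Hochberg adjusted p below 0.05, edgeR's quasi-likelihood test over 13580 genes), where 69.3% of all genes tested were called, 34.7% higher and 34.6% lower. With sh2, 6 fell, 3 rose and 1 was not called, where 68.5% of all genes were called, 34.2% higher and 34.3% lower. Calls of at least 2-fold were 5 falls and 0 rises among the 10 genes with sh1, against 9.15% of all genes (3.93% higher and 5.21% lower). With sh2 there were 0 such calls among the 10, against 7.75% of all genes (3.14% higher and 4.61% lower), and KRT14 lay just under that size. Both hairpins lowered 6 of the 10 (KRT5, KRT14, KRT15, KRT16, KRT4 and KRT13), raised 1 (KRT8) and moved 1 (KRT18) in opposite directions. Of all genes 20.2% were called lower with both, 19.4% higher with both, 39.6% in the same direction and 12.7% in opposite directions. The median log2 change of the 10 genes was -0.83 with sh1 and -0.44 with sh2, while that of all genes tested was 0.01 and 0.005. Both comparisons use the same control libraries.

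**Figure D1:**
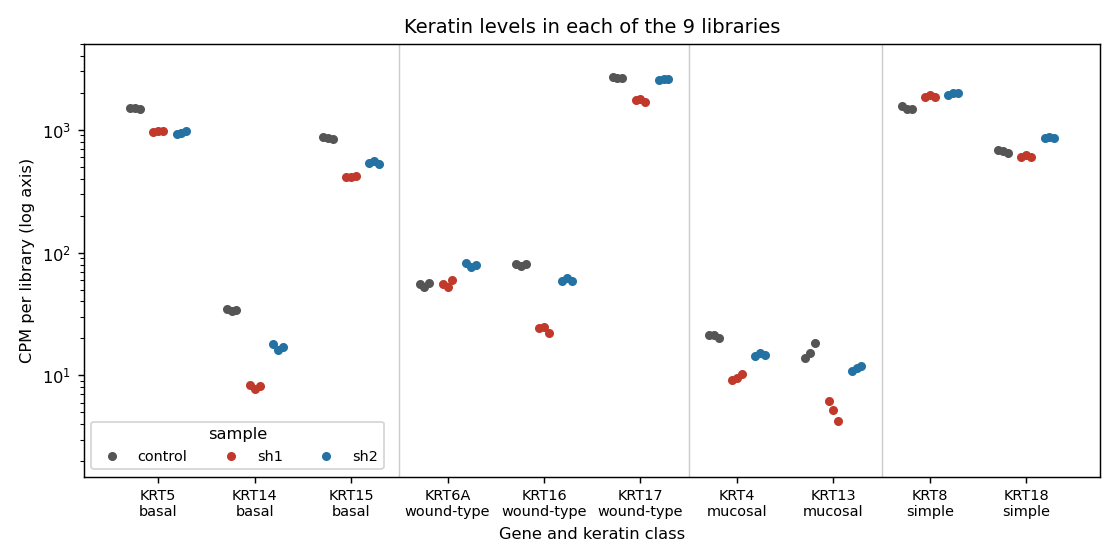
Levels of the 10 keratin genes in CPM (log axis). Each point is 1 library, with 3 libraries for each of control, sh1 and sh2. KRT14, KRT16, KRT4 and KRT13 are lowest with sh1 and intermediate with sh2, and KRT8 lies above control in all 6 hairpin libraries.

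In control cells the levels per transcript length (TPM) ranged widely. KRT17 led with 4250 ± 35.4 TPM (SD, n = 3 libraries) and ranked 7th of all genes in the tables. KRT8 followed with 2090 ± 33.4 TPM, KRT5 with 1610 ± 9.89, KRT15 with 1160 ± 13.5 and KRT18 with 1140 ± 18.2, the last 2 lying within their spread. KRT16 stood far below at 116 ± 2.49 TPM. KRT6A had 55.6 ± 2.14 TPM and KRT14 51.8 ± 0.344. The mucosal genes KRT4 (24.4 ± 0.511) and KRT13 (23.0 ± 3.64) were lowest and did not differ beyond their spread, so that the suprabasal mucosal pair was present at a low level only. KRT5 thus exceeded its usual partner KRT14 by 31.1-fold ± 0.374 in TPM, while KRT15, the other basal type I gene, was near KRT5.

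The basal class fell with both hairpins. KRT5 (Entrez gene 3852), the main type II keratin of basal cells, stood at 1505.6, 1499.9 and 1483.8 CPM in the control libraries, 968.6, 977.8 and 978.0 with sh1, and 928.2, 938.9 and 985.3 with sh2. Every hairpin library lay below every control library, and those of the hairpins overlapped each other. The log2 change was -0.62 ± 0.025 (SE) with sh1 and -0.65 ± 0.025 with sh2 (adjusted p = 1.78e-19 and 5.61e-20). KRT5 was the only one of the 10 genes without a called difference between the hairpins (0.04 ± 0.025, sh1 minus sh2, adjusted p = 0.205), although without sh2 library 3 that difference passed (0.06, adjusted p = 0.0224).

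KRT15 (3866), a basal keratin that is also known from epithelial stem cells, had 880.5, 860.1 and 841.5 CPM in control, 414.2, 410.0 and 424.5 with sh1, and 533.2, 554.3 and 530.7 with sh2. The 3 groups did not overlap, and sh1 was lowest. Its log2 changes were -1.05 ± 0.027 and -0.67 ± 0.027 (adjusted p = 2.84e-24 and 1.4e-19). KRT14 (3861), the type I partner of KRT5, had the largest fall of the 10 genes with each hairpin. Its control libraries held 34.6, 33.7 and 33.8 CPM, those of sh1 8.42, 7.79 and 8.21, and those of sh2 18.0, 16.1 and 17.1. The groups were again apart, in the order control, sh2, sh1. That is a change of -2.06 ± 0.074 with sh1 and -1.0 ± 0.062 with sh2 (adjusted p = 9.11e-21 and 8.79e-15), and the hairpins differed by -1.07 ± 0.084 (sh1 minus sh2, adjusted p = 1.93e-12).

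The level of KRT14 depends on how reads were divided between similar genes. Its coding sequence and that of KRT16, both on chromosome 17, were identical at 1234 of 1449 aligned positions (85.2%), with an identical run of 158 bases. Of the 50-base windows of the KRT14 coding sequence, 13.5% also occurred in transcripts of other coding keratin genes and 23.1% in keratin transcripts without a coding sequence, such as pseudogenes. The 90 bases of exon 5 in which KRT14 and KRT16 differ most, with the 25 differing bases in capitals, show what tells their reads apart (GENCODE release 29, GRCh38, minus strand, chr17:41583585-41583674 for KRT14 and chr17:41610888-41610977 for KRT16).
KRT14: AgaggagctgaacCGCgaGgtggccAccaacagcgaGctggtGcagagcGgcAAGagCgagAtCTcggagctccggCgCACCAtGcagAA
KRT16: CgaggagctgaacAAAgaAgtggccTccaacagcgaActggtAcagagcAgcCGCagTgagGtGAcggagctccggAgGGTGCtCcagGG
In exon 1, by contrast, the 90 bases at chr17:41586436-41586525 of KRT14 were the same in KRT16 (chr17:41612284-41612373), so that a read within them could come from either.
KRT14 and KRT16: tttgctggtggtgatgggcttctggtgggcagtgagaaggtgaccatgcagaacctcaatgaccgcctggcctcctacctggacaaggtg
The summed CPM of KRT14 and KRT16, which does not depend on the split between them, was 114 ± 2.26 in control, 31.9 ± 1.26 with sh1 and 77.1 ± 0.98 with sh2. When KRT17 was added to the sum, that far more abundant gene set the result, with changes of -0.65 and -0.07.

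**Figure D2:**
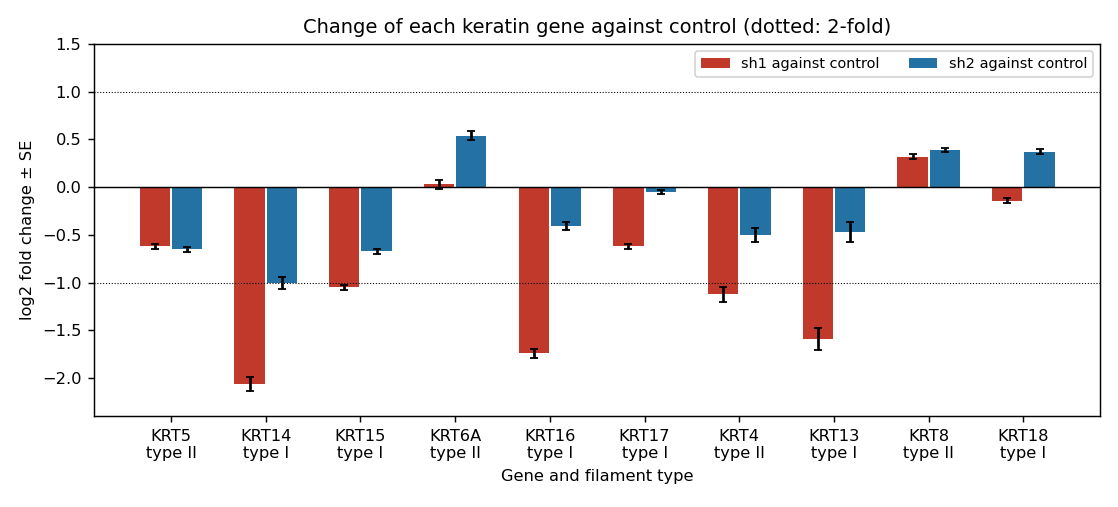
Log2 fold change of each keratin gene against control in the edgeR fit, for sh1 and sh2, with filament type under each name. Error bars are SE of the fit (n = 3 libraries per group) and dotted lines mark 2-fold. With sh1 the bars of KRT14, KRT15, KRT16, KRT4 and KRT13 pass 2-fold downward, and with sh2 none does.

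The wound-type class was split, both between its genes and between the hairpins. KRT16 (3868), the inducible type I keratin, had 81.1, 77.6 and 80.4 CPM in control, 24.2, 24.9 and 22.3 with sh1, and 59.1, 62.0 and 58.9 with sh2. No library of one group reached into another, and the fall was steeper with sh1. The changes were -1.74 ± 0.05 and -0.41 ± 0.041 (adjusted p = 2.82e-23 and 3.65e-10). Between the hairpins KRT16 showed the largest difference of the 10 genes, at -1.34 ± 0.052 (sh1 minus sh2, adjusted p = 9.78e-20).

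KRT17 (3872), a type I keratin linked to growth and to squamous tumours, stood at 2702.0, 2625.1 and 2648.8 CPM in control, 1733.6, 1773.3 and 1696.4 with sh1, and 2544.3, 2577.5 and 2597.1 with sh2. With sh1 the libraries were far below control, at -0.62 ± 0.023 (adjusted p = 3.78e-20). With sh2 they lay just below the control libraries without overlap, and the change of -0.05 ± 0.023 was not called (adjusted p = 0.0714). Over the alternatives this change stayed between -0.07 and -0.04, with adjusted p from 0.0139 to 0.187. It passed with DESeq2 (adjusted p = 0.0208), without a filter on low counts (adjusted p = 0.0275), with KRT14 and KRT16 added (adjusted p = 0.0139) and without control library 2, sh1 library 2 or sh2 library 3 (adjusted p = 0.0425, 0.0476 and 0.041). The hairpins differed for KRT17 by -0.57 ± 0.023 (sh1 minus sh2, adjusted p = 3.58e-19).

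KRT6A (3853), the type II partner of KRT16 and KRT17, had 55.5, 52.3 and 56.1 CPM in control, 55.3, 52.6 and 59.5 with sh1, and 82.8, 76.4 and 79.1 with sh2. The sh1 libraries overlapped control and the sh2 libraries lay above both. Its change was 0.03 ± 0.049 with sh1, which was not called (adjusted p = 0.591), and a rise of 0.54 ± 0.046 with sh2 (adjusted p = 9.06e-12). The sum with its near-identical copies, a different quantity, gave other values, and it cannot tell whether those of KRT6A alone are right. KRT6B and KRT6C encode almost the same protein, and the coding sequence of KRT6A matched that of KRT6B at 1652 of 1695 positions (97.5%) and that of KRT6C at 97.9%. Of the 50-base windows of KRT6A, 52.7% recurred in other keratin genes. The 90 bases of exon 2 with most differences between KRT6A and KRT6B hold 10 differing bases, in capitals (GRCh38, minus strand, chr12:52491532-52491621 for KRT6A and chr12:52450416-52450505 for KRT6B).
KRT6A: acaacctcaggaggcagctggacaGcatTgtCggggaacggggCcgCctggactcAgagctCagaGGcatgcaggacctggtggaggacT
KRT6B: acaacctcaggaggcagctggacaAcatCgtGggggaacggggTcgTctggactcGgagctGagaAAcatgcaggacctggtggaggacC
Over the coding sequence as a whole 43 bases differed, and the longest stretch without a difference ran for 269 bases.

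KRT6B had 52.3, 54.1 and 54.9 CPM in control, 16.6, 14.6 and 15.5 with sh1, and 28.9, 32.5 and 33.0 with sh2. It fell by 1.79 and 0.77 on the log2 scale (adjusted p = 4.55e-21 and 8.73e-14), while KRT6C stayed below 1 CPM in each group mean. The summed counts of KRT6A, KRT6B and KRT6C were 108.8, 107.0 and 111.0 CPM in control, 72.6, 68.1 and 76.0 with sh1, and 112.5, 109.0 and 113.1 with sh2. For the sum, sh1 was thus lower than control in all 3 libraries (-0.59 ± 0.04, adjusted p = 3.96e-14) and sh2 overlapped control (0.03 ± 0.037, adjusted p = 0.424). KRT6A took 50.1% ± 1.13 of the summed counts in control, 77.3% ± 1.1 with sh1 and 71.2% ± 2.04 with sh2. Expected counts of KRT6A were whole in 0 of 9 libraries. The same held for every other gene of the 10 except KRT4 and KRT18. Whether the division between copies moved with the hairpins was not tested.

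**Figure D3:**
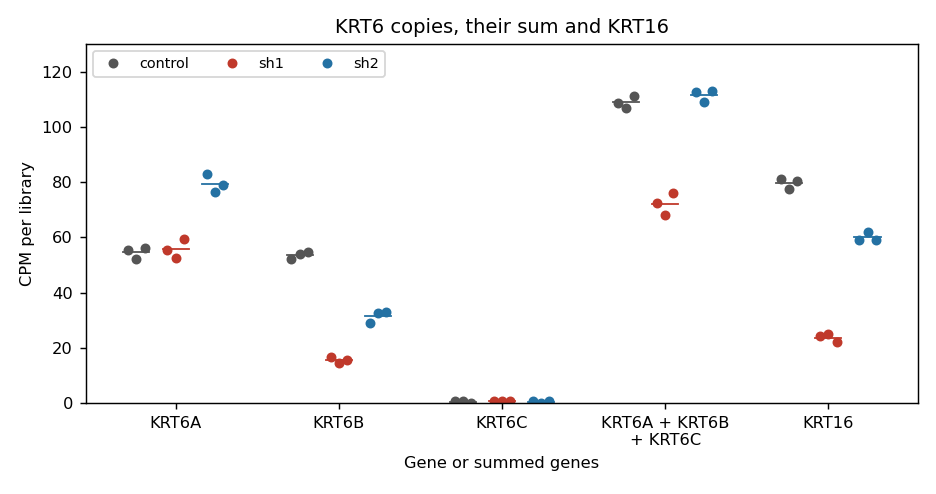
Level in CPM of KRT6A, KRT6B and KRT6C, of their sum, and of KRT16, in each library (points) with group means (lines). KRT6A is level or higher with the hairpins and KRT6B lower, while their sum lies at 68.1 to 76.0 CPM with sh1 against 107.0 to 111.0 in control and 109.0 to 113.1 with sh2.

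The mucosal class fell with both hairpins, from the lowest levels among the 10 genes. KRT13 (3860), the type I keratin of suprabasal esophageal cells, had 13.8, 15.2 and 18.3 CPM in control, 6.18, 5.22 and 4.28 with sh1, and 10.9, 11.4 and 11.9 with sh2. Its control libraries spread more widely than those of any other of the 10 genes relative to their mean, but no group overlapped another. The changes were -1.59 ± 0.12 and -0.47 ± 0.1 (adjusted p = 6.93e-13 and 0.000143). KRT4 (3851), its type II partner, had 21.5, 21.2 and 20.2 CPM in control, 9.16, 9.48 and 10.2 with sh1, and 14.4, 15.3 and 14.6 with sh2. The libraries kept the order control, sh2, sh1, with changes of -1.12 ± 0.079 and -0.5 ± 0.071 (adjusted p = 1.35e-13 and 3.11e-07). Both genes were lower with sh1 than with sh2, KRT13 by 1.12 and KRT4 by 0.62 on the log2 scale (adjusted p = 4.66e-09 and 1.38e-07). No 50-base window of the KRT4 coding sequence recurred in another keratin gene, and its expected counts were whole numbers in 8 of 9 libraries.

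The simple pair behaved differently: KRT8 rose with both hairpins and KRT18 with sh2 alone, falling with sh1. KRT8 (3856), the type II keratin of simple epithelia, stood at 1549.0, 1476.9 and 1489.9 CPM in control, at 1859.6, 1914.2 and 1846.8 with sh1, and at 1924.9, 1997.3 and 1991.3 with sh2. All 6 hairpin libraries were above all control libraries. The rises were 0.32 ± 0.025 and 0.39 ± 0.025 (adjusted p = 1.89e-12 and 1.6e-14). The small difference between the hairpins, -0.07 ± 0.025 (sh1 minus sh2, adjusted p = 0.01), was lost without sh1 library 1, sh1 library 3 or sh2 library 2 (adjusted p = 0.0509, 0.0767 and 0.0619).

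KRT18 (3875), the type I partner of KRT8 and its neighbour on chromosome 12, moved in opposite directions. It had 689.9, 670.3 and 653.0 CPM in control, 603.7, 626.2 and 597.8 with sh1, and 852.7, 878.4 and 864.3 with sh2. The sh1 libraries were all below control and the sh2 libraries all above. The change was -0.14 ± 0.027 with sh1 and 0.37 ± 0.027 with sh2 (adjusted p = 3.8e-05 and 3.15e-13), and the hairpins differed by -0.51 ± 0.027 (adjusted p = 1.71e-16). Expected counts of KRT18 were whole in all 9 libraries, and those of KRT8 in 0 of 9. Keratin transcripts without a coding sequence, such as pseudogenes, hold 38.7% of the 50-base windows of KRT18 and 45.5% of those of KRT8. The tables list 0 keratin pseudogenes, and the treatment of reads from such copies was not described in the labels or headers.

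Compared directly, sh1 was lower than sh2 for 9 of the 10 genes and the difference for KRT5 was not called, where 69.8% of all genes were called, 35.6% lower with sh1 and 34.2% higher. At 2-fold or more, 3 of the 10 genes were lower with sh1 (KRT14, KRT16 and KRT13) and 0 higher, against 8.28% of all genes (3.9% lower and 4.37% higher). The median of the 10 genes was -0.54 and that of all genes 0.003. Libraries of the compared groups did not overlap for 9 of 10 keratins in sh1 against control, for 10 in sh2 against control and for 9 in sh1 against sh2, where the shares over all genes tested were 71.9%, 70.3% and 71.9%.

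Summed by class in TPM, the basal genes ranged over 2807.9 to 2831.7 in control, 1548.5 to 1582.5 in sh1 libraries and 1677.1 to 1711.8 in sh2 libraries. The simple genes ranged over 3205.6 to 3286.6, 3469.4 to 3573.3 and 3974.5 to 4060.4 in the same order, with every hairpin library above control. Wound-type genes, most of them KRT17 by level, had means of 4419.7 TPM in control, 2769.7 with sh1 and 4084.2 with sh2, and mucosal genes 47.4, 18.2 and 32.3. Deposited TPM is not TMM-scaled, so such sums depend on the unit. With sh2 the wound-type sum was 92.4% of control in TPM and 97.1% in CPM, and KRT17 was not called. As a share of the summed TPM of the 10 genes, the basal class held 26.8% ± 0.24 in control, 19.9% ± 0.42 with sh1 and 17.2% ± 0.083 with sh2. The simple class held 30.7% ± 0.26, 44.7% ± 0.24 and 40.9% ± 0.23, and was the largest class by this measure with sh1. The wound-type share was 42.0% ± 0.25, 35.1% ± 0.25 and 41.5% ± 0.21, and the mucosal share below 1% throughout. All keratin genes together made up 1.23% of the TPM of a library in control, 0.932% with sh1 and 1.18% with sh2. In bulk RNA, fewer cells of a type and less RNA per cell cannot be told apart.

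**Figure D4:**
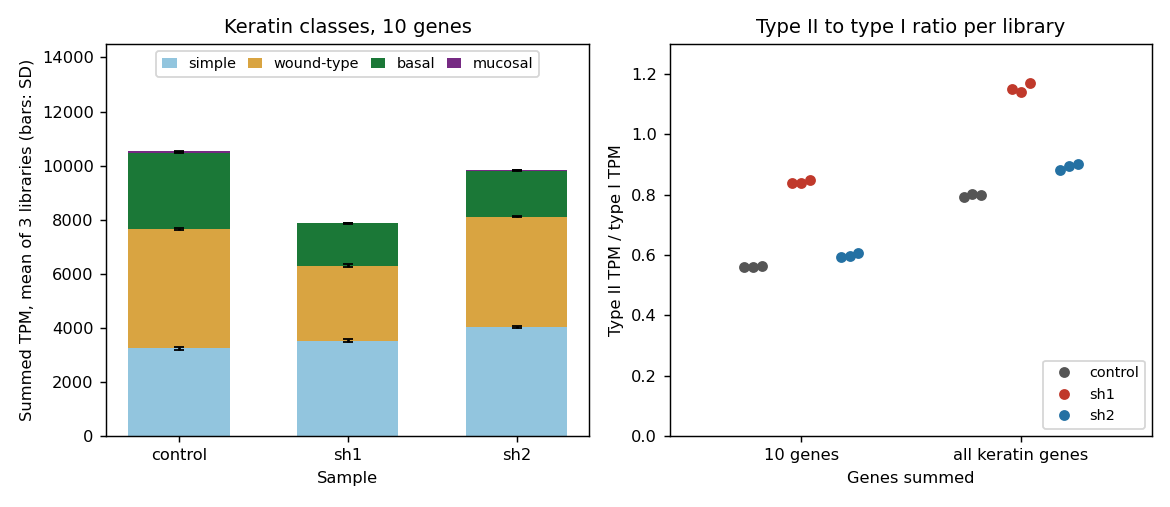
Left, summed TPM (a level per transcript length) of the 10 keratin genes by class, as means of 3 libraries with SD bars. Right, the ratio of summed type II to summed type I keratin TPM in each library, for the 10 genes and for all 55 keratin genes in the tables. The basal segment shrinks with both hairpins, and the ratio is 0.838 to 0.849 with sh1 against 0.561 to 0.562 in control for the 10 genes.

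Because filaments need a type I and a type II chain, the ratio of the types was compared within libraries, where no scaling between libraries enters. Type II over type I TPM was 0.561, 0.561 and 0.562 in the control libraries, 0.838, 0.838 and 0.849 with sh1, and 0.593, 0.598 and 0.607 with sh2. Both hairpins lay above control without overlap, and sh1 furthest. Over all 55 keratin genes, which add the type II gene KRT7 to the sum, the means were 0.797 ± 0.00481, 1.15 ± 0.0123 and 0.893 ± 0.0112. With 3 libraries against 3, the exact two-sided permutation test cannot give a p below 0.1. That value was reached for both ratios in all 3 pairs of groups (0.126 after Benjamini-Hochberg adjustment over 24 such tests), so none passes 0.05.

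Single pairs differed in this. KRT5 over KRT14 was 31.1 ± 0.374 in control, 84.7 ± 3.6 with sh1 and 39.5 ± 2.73 with sh2. KRT5 over KRT15 was 1.39 ± 0.0216, 1.87 ± 0.0323 and 1.41 ± 0.0669, and sh2 overlapped control. KRT8 over KRT18 was 1.83 ± 0.0316 in control and 2.51 ± 0.0149 with sh1, and at 1.86 ± 0.0196 with sh2 it overlapped control. KRT4 over KRT13 was 1.08 ± 0.182 in control, which both sh1 (1.51 ± 0.365) and sh2 (1.04 ± 0.0473) overlapped, while the sh1 libraries all lay above those of sh2. KRT6A over KRT16 was 0.478 ± 0.00834 in control, 1.65 ± 0.202 with sh1 and 0.925 ± 0.0592 with sh2, with the split of reads among the KRT6 copies uncertain as above.

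Of 45 other keratin genes in the tables, 14 passed the filter, 31 did not, and 5 of these had 0 counts in all libraries. Among the 14, 2 rose and 7 fell with sh1, and 5 rose and 5 fell with sh2, with medians of -0.27 and 0.14. Over all genes tested 34.7% were called higher and 34.6% lower with sh1, and 34.2% and 34.3% with sh2, so that the sh2 counts of these keratins lie near the background. KRT7, a type II keratin of simple and glandular epithelia, was the most abundant at 1490 TPM in control. It had 1038.5, 1055.7 and 1031.6 CPM in control, 952.6, 957.3 and 959.5 with sh1, and 1251.1, 1312.7 and 1303.0 with sh2. Like KRT18 it fell with sh1 (-0.12 ± 0.025) and rose with sh2 (0.31 ± 0.024). KRT19, the simple type I keratin, rose with both (0.34 ± 0.121 and 0.59 ± 0.115, adjusted p = 0.0136 and 4.15e-05) from 6.67 ± 0.762 CPM.

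KRT23, a type I keratin, fell most among these genes at 10 CPM or more, with 43.3 ± 1.06 CPM in control, 8.66 ± 0.413 in sh1 and 15.0 ± 0.982 in sh2 (-2.32 ± 0.07 and -1.52 ± 0.061). The type II genes KRT80 (-1.4 ± 0.048 and -0.63 ± 0.043) and KRT75 (-1.02 ± 0.055 and -0.56 ± 0.051) fell with both hairpins. KRT10, a keratin of cornifying suprabasal cells, fell with sh1 (-0.41 ± 0.067) and was not called with sh2 (0.13 ± 0.061, adjusted p = 0.0606).

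A list of 14 genes, all of them tested, held proteins that tie keratin filaments to desmosomes, hemidesmosomes and the cytoskeleton. It also held genes that are no such linkers, SFN among them, so its counts do not describe linkers alone. With sh1, 4 rose and 7 fell, and with sh2, 3 rose and 9 fell, with medians of -0.2 and -0.3. The background over all genes was 34.7% higher and 34.6% lower with sh1, and 34.2% and 34.3% with sh2. DST, whose epithelial form anchors keratins at hemidesmosomes, fell from 426 ± 2.83 CPM to 260 ± 6.65 and 199 ± 2.48. The desmosomal plakophilin gene PKP2 fell from 72.9 ± 1.82 CPM to 38.9 ± 1.51 and 48.6 ± 2.19, and SFN, the 14-3-3 protein of stratified epithelia, from 856 ± 3.55 to 430 ± 14.9 and 708 ± 35.3. In the hemidesmosome list of 6 genes, 2 rose and 2 fell with sh1 and 1 rose and 5 fell with sh2, beside the same background. There COL17A1, a transmembrane collagen of basal cells, rose from 96.6 ± 2.75 CPM to 161 ± 3.59 and 146 ± 6.01, and ITGB4, the beta 4 integrin, fell from 491 ± 4.57 to 264 ± 6.31 and 364 ± 13.3.

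Of 17 epithelial transcription factors, 4 rose and 10 fell with sh1, and 2 rose and 14 fell with sh2, with medians of -0.31 and -0.35, where the share of all genes called lower was 34.6% and 34.3% and that called higher 34.7% and 34.2%. TP63, the factor that maintains the basal state of stratified epithelia, fell from 518 ± 10.4 CPM to 213 ± 6.89 in sh1 and 232 ± 6.82 in sh2 (-1.28 ± 0.03 and -1.16 ± 0.03). ZNF750, a factor of squamous differentiation, fell from 12.2 ± 0.252 CPM to 2.94 ± 0.529 and 6.02 ± 0.329, and OVOL1, a zinc finger factor of epithelial differentiation, from 44.9 ± 0.211 to 24.0 ± 2.12 and 18.3 ± 0.574. The 8 markers of the list set as squamous were divided. With sh1, 3 were higher and 4 lower, and with sh2, 3 were higher and 3 lower, near the same background. Among them SOX2, a factor of squamous epithelium that is also in the list above, rose from 20.8 ± 0.491 CPM to 49.8 ± 0.776 and 34.7 ± 2.2. EPCAM, an epithelial adhesion gene named after its values were seen, rose as well (0.99 and 0.51). The desmosomal cadherin gene DSG3 fell from 133 ± 1.38 CPM to 60.8 ± 0.774 and 84.4 ± 3.22.

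The genes whose changes lay nearest to those of each keratin were sought among 10299 other genes with at least 10 CPM in a group, by the distance between their 2 log2 changes against control. Such likeness rests on 3 group means only. For KRT14 only 3 genes lay within 0.1, and ZNF750 was nearest (-2.02 with sh1 and -1.01 with sh2), followed by MYEOV. KRT13 had 2 genes within 0.1 (PAK2 and KICS2) and KRT16 had 4, with TMEM40 and RAB28 nearest. The distance of 0.03 between ZNF750 and KRT14 was smaller than the SEs of the ZNF750 changes (0.126 and 0.107). The SEs of KRT13 (0.12 and 0.1) also exceeded the distances of PAK2 and KICS2 (0.064 and 0.08). For such low genes the order of neighbours is therefore not resolved. Many more genes lay within 0.1 of KRT8, 236, and of KRT18, 142. Most genes changed little, so these numbers are larger for keratins of small change, and no expected number was set beside them. For the other keratins the nearest genes were PHLDB1 and MED13 for KRT5, YARS1 and EEA1 for KRT15, NPTN and ZNF839 for KRT6A, MYO1C and SWAP70 for KRT17, and RNF24 and JMY for KRT4.

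Promoter windows of 300 bases, 250 before to 50 after the start, were held in the RefSeq table (GRCh38.p14) for 3 of the 10 genes, KRT5, KRT4 and KRT8. For each motif searched, these 3 windows, the first listed for each gene, held 0 exact matches on either strand. Variant spellings of a motif and any further start of a gene were not searched. The AP-1 motif, spelled TGANTCA, occurs in 7.71% of all 35116 windows of that length. The Sp1 motif, spelled GGGCGG, occurs in 45.0% of them. The CACCC box was searched as CCACCC and is found in 34.3%. The TATA box was searched as TATAAA and is found in 11.5%.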

How the data were processed

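BGISEQ-500 sequencing of total RNA is named in the labels. Per the submitters' processing notes, the tools were RSEM 1.2.12, Bowtie2 2.2.5, HISAT2 2.0.4 and DESeq2 1.4.5, on hg19, with no role given. Per the file headers, the authors deposited an expected count (an estimate that need not be whole), a TPM and an FPKM value for 19266 Entrez genes in each of 9 tables. Symbols came from RefSeq (GRCh38.p14), which named 19223 of them. Use of strand in counting was not described, so overlapping genes are uncertain.

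Expected counts were rounded and fitted in R 4.3.3 with edgeR 4.0.16: filterByExpr kept 13580 genes, TMM scaled the libraries, and 1 quasi-likelihood fit with group as its only term took all 9 libraries. CPM uses the TMM-scaled library sizes, a floor of 3 counts being 0.187 to 0.204 CPM. The SE is the absolute log2 fold change over the square root of F. Calls use a Benjamini-Hochberg adjusted p below 0.05 over all genes. The test was checked on simulated counts of independent libraries with 1 spread for all genes, which do not stand for repeat runs. Class sums, class shares and ratios of genes use the deposited TPM unless CPM is named. Sums of similar genes, the KRT6A percentage of its sum and the marker sums use CPM. Alternatives used DESeq2 1.42.0, and limma 3.58.1 on the deposited FPKM as log2(FPKM + 1) or log2(FPKM + 0.1) for genes averaging 1 FPKM or more, which understates low genes.

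Members and lists were chosen with earlier results of these data known, and the comparison of coding sequences after the values were seen. Named were all members, other keratins of at least 10 CPM in a group, from each list the 3 genes of largest mean change called with both hairpins, and the 2 nearest genes of each member. Coding sequences are those of the GENCODE release 29 transcript matched to the tables' RefSeq transcript. A match of 50 bases had to be exact, and a count was whole within 1e-06. Table numbers did not pair the samples (correlation of same-numbered deviations -0.073 to 0.099).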

Additional observations from a re-analysis of the deposited data

Results flagged for a closer look

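KRT18 fell with sh1 and rose with sh2, alone among the 10 keratin genes, and the test of the difference itself passed. The difference was -0.51 ± 0.027 on the log2 scale (sh1 minus sh2, adjusted p = 1.71e-16, edgeR's quasi-likelihood test), and over 15 alternatives it stayed between -0.52 and -0.49. Of all genes tested 12.7% were called in opposite directions, so 1 of 10 lies near the background. Between the hairpins 69.8% of all genes were called. Outside the 10, KRT7 moved as KRT18 did (-0.12 with sh1 and 0.31 with sh2).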

How the results depend on the processing

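Among recomputed fold changes of the 10 keratin genes, 447 kept their direction and their side of the threshold, 7 became called, 6 lost the call and 2 changed sign. The last 3 kinds concern KRT6A, KRT17, KRT8 and KRT5. Counted among the 447 is the sum of KRT14, KRT16 and KRT17, set against KRT14 and against KRT16, though KRT17 sets its value. It gave -0.65 with sh1 and -0.07 with sh2, where KRT14 alone had -2.06 and -1.0 and KRT16 -1.74 and -0.41. These entries therefore do not measure how stable KRT14 or KRT16 is. KRT6A with sh1 was 0.03, and -0.02 without sh1 library 3. The sum of KRT6A, KRT6B and KRT6C, a different quantity, gave -0.59 with sh1. With sh2 that sum gave 0.03, where KRT6A alone rose by 0.54. Leaving out single libraries gave KRT6A -0.02 to 0.07 with sh1. KRT17 with sh2 became a called fall, at -0.05 with DESeq2, -0.06 without a filter on low counts and -0.07 summed with KRT14 and KRT16, and single omissions gave -0.06 to -0.04. The difference between hairpins for KRT8 was -0.07 with limma on FPKM with either pseudocount and no longer called, and -0.09 to -0.06 with single omissions. That for KRT5 was 0.02 to 0.06 with single omissions. In the fit with the table number as a replicate block no call of the 10 genes changed, with KRT14 at -2.06 for sh1 and 9431 genes called. Only limma on FPKM moved counts of genes called at 2-fold or more by over 1.5 times: with a pseudocount of 1 to 608, 470 and 476 for sh1, sh2 and sh1 against sh2 (from 1242, 1053 and 1124), and with 0.1 to 689 for sh2.

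Class shares depend on the unit. In control, sh1 and sh2, with CPM in place of TPM they were 32.3%, 24.5% and 21.3% basal, 37.8%, 31.8% and 38.3% wound-type, 0.497%, 0.26% and 0.369% mucosal, and 43.5% and 40.0% simple with the hairpins against 29.4%. Against the TPM of all keratins they were 23.0%, 16.8% and 14.4% basal, 36.0%, 29.7% and 34.7% wound-type, 0.386%, 0.195% and 0.274% mucosal, and 26.3%, 37.8% and 34.2% simple. The type II to type I ratio over all keratins was 0.797, 1.15 and 0.893. KRT13, KRT4 and KRT14 rest on the fewest counts of the 10 genes and have the least precise changes. With sh1, KRT14 had 360 counts over the libraries and KRT4 425.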

Other observations

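Intermediate filaments other than keratins were read from a list of 13 genes, of which 7 passed the filter. With sh1, 5 rose and 1 fell, and with sh2, 5 rose and 0 fell, with medians of 0.3 and 0.54 against 0.01 and 0.005 over all genes tested. Of all genes 34.7% were called higher and 34.6% lower with sh1, and 34.2% and 34.3% with sh2. The lamin gene LMNB1, which encodes a filament protein of the nuclear envelope, rose with both hairpins, with 121 ± 4.12 CPM in control, 208 ± 1.32 in sh1 and 262 ± 2.83 in sh2 (SD over 3 libraries). SYNM, encoding synemin, rose from 75.9 ± 3.72 CPM to 120 ± 3.53 and 108 ± 0.935. NES, encoding nestin, rose from 0.482 ± 0.135 CPM to 2.15 ± 0.281 and 1.36 ± 0.495, on 22 counts over the control libraries. VIM, the vimentin gene of mesenchymal cells, did not pass the filter, with 11 counts over the control libraries, 2 with sh1 and 7 with sh2.

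Of the marker lists for other cell types, the fibroblast genes summed to 48.2 to 50.9 CPM in control, 53.8 to 60.0 with sh1 and 66.8 to 70.0 with sh2, nearly all of it COL1A1 (49.6 ± 1.41, 55.4 ± 3.42 and 68.2 ± 1.92 CPM). Immune markers summed to 7.92 to 8.38, 9.96 to 11.3 and 9.15 to 10.5 CPM, and endothelial markers to 12.9 to 15.0, 14.8 to 20.4 and 14.8 to 17.3 CPM, with CDH5 at 7.91 ± 0.65, 13.2 ± 2.57 and 12.05 ± 0.92 and VWF at 3.73 ± 0.665, 2.35 ± 0.173 and 1.53 ± 0.417. Their part in the keratin results was not tested.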
